A study of Schizosaccharomyces pombe with 97 samples.

Results

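SPBC1652.02 is a fission yeast (Schizosaccharomyces pombe) gene annotated as an amino acid transporter of the APC family, and SPNCRNA.577 is the non-coding RNA annotated on the opposite strand over most of its length. The pair was selected on wild-type values of these libraries: the sense gene was chosen because it fell, and the antisense RNA because it rose, when wild-type cells were starved of nitrogen. The wild-type changes, and every comparison of a mutant with the wild type, are therefore given as a description without a test. The tests are those of changes within a mutant and between mutants, whose libraries the rule of the choice did not use. Earlier results of these data were known when the pair was chosen, so these tests are not blind to them. These are 2 of the 7014 genes in the count table, and both were among the 6608 genes with enough reads to be tested.

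APC transporters are plasma membrane or vacuolar permeases that carry amino acids across the membrane with protons. Fission yeast that runs out of nitrogen divides down to small cells, arrests before DNA replication and enters quiescence, and amino acid permeases are among the genes known to respond to the nitrogen source. Antisense transcription is common in fission yeast, and for several of its genes transcription of the opposite strand is known to interfere with the sense gene.

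RNA-seq was done on rRNA-depleted RNA from cells in vegetative growth in minimal medium with nitrogen (T0) and from cells that had been without nitrogen for 24 h (T1D), for 1 week (T1W) or for 2 weeks (T2W). The wild type carried the smt0 allele at the mating-type locus, which keeps cells from switching mating type, and is labelled SMT0. The 6 mutants are named by the gene whose deletion they are labelled with, in an smt0 background: HHT2 (hht2, a histone H3 gene), PHT1 (pht1, the histone variant H2A.Z), IEC1 (iec1) and IES2 (ies2), which encode subunits of the Ino80 chromatin remodelling complex, ARP42 (arp42, an actin-related protein and putative subunit of the same complex) and ASP1 (asp1, an inositol kinase). Each of the 27 groups of strain and time point had 3 biological replicates, lettered A, B and C, which makes 81 libraries, and IES2 was not analysed at T2W. A portion of each culture was taken at T0 and the rest was starved, so groups of a strain can share cultures. No source says that the letters mark a culture. In HHT2 the level of hht2 reads, given below, was highest in replicate A at every time point. The groups were compared as unpaired, and fits with a replicate block are among the alternatives.

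Both genes have 1 exon and lie on chromosome II (ASM294v2, the build of the count table). SPBC1652.02 spans positions 4256055 to 4259457 on the plus strand (3403 bp), and SPNCRNA.577 spans 4255755 to 4259164 on the minus strand (3410 bp). They share 3110 bp, which is 91.4% of the sense gene and 91.2% of the antisense gene. The antisense RNA alone covers 300 bp before the sense start, and the sense gene alone covers the last 293 bp. In the RefSeq annotation (ASM294v3) the sense gene runs from 4256050 to 4259457 and its coding sequence, 1785 bp in 1 exon, from 4256509 to 4258293, inside the antisense gene as a whole. The map of the locus shows the arrangement.

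**Figure D1:**
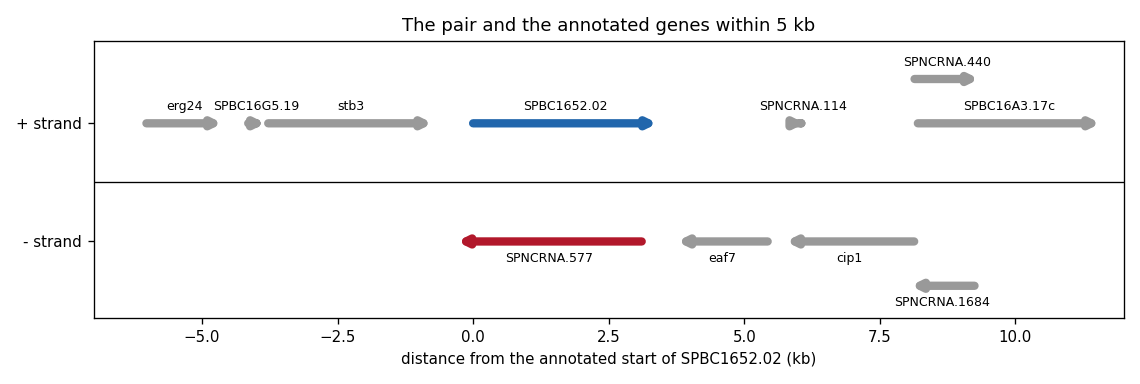
Map of SPBC1652.02 and SPNCRNA.577 and the annotated genes within 5000 bp, drawn to scale, with distance from the start of the sense gene in kb on the horizontal axis and the strand of each gene on the vertical axis. The genes overlap over 3110 bp, the antisense gene reaches 300 bp upstream of the sense start, and the sense gene reaches 293 bp past the point where the antisense gene begins.

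The 250 bases before the sense gene are the window in which its promoter would be sought, and all of them lie inside the antisense gene, which the annotation gives as transcribed on the minus strand. They are printed from the plus strand of RefSeq ASM294v3, chrII:4255800-4256049, with matches to the searched motifs in capitals:
SPBC1652.02 upstream: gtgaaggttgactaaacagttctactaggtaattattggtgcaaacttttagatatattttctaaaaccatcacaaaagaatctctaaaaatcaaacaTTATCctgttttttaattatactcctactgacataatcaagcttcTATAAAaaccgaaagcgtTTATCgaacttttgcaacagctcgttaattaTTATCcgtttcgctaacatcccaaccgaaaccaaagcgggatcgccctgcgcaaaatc
The core bound by zinc finger factors of nitrogen regulation, spelled GATAA, was found on the minus strand, so that the plus strand printed here reads TTATC, and it stands 152, 89 and 58 bases before the gene start. The core promoter element TATAAA stands 107 bases before it on the plus strand, and no 2 matches overlap. Both strands were searched, and these motifs are common: 54.1% of 5155 windows of the same length before annotated genes hold GATAA and 44.4% hold TATAAA. The other motifs searched had no match in this window. They were TGACGT, bound by stress-activated bZIP factors such as Atf1 and held by 5.53% of the windows. The MluI box ACGCGT of cell cycle genes was held by 2.62%, and the forkhead motif GTAAACA by 14.8%. The motif of Ste11, the regulator of mating genes, spelled TTCTTTGTT, was held by 1.61%, and the stress response motif CCCCT by 8.30%. A match describes these letters only.

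Reads on annotated genes ranged from 1980570 to 18992894 per library (median 5149311), and reads on the ERCC spike-in RNAs, which were added by the number of vegetative cells in a culture, from 5678 to 3003773. The values are given on 2 scales: the ERCC scale, which follows the amount of RNA per spike-in, and a scale relative to the other genes, in which the typical gene does not change. Reads on the deleted gene, as a percent of the SMT0 mean at the same time, were under 25% in 12 of 12 ASP1, 11 of 12 HHT2 and 7 of 9 IES2 libraries, but in 2 of 12 ARP42 libraries and in 0 of 12 labelled PHT1 (38.2% to 118%) and 0 of 12 labelled IEC1 (52.6% to 145%). The annotated exons of these genes run past the coding sequence, which makes up 33.2% of the exon length in pht1, 51.7% in iec1 and 43.6% in arp42. Reads outside a deleted coding sequence would still be counted. Whether they account for these levels, some of which exceeded the SMT0 mean, was not tested. The labels of these strains could not be checked by their gene. In ARP42 at T1D the level was 70.2% to 96.4%. Of the IES2 libraries, T0 replicate C had 3309 reads of ies2 (217% of the SMT0 mean), against 60 and 85 in A and B, and T1D replicate B was at 37.3%. In HHT2 the library over the limit was T2W replicate A (36.6%). Replicate A was also at 22.2% at T0, 15.1% at T1D and 16.7% at T1W, and T2W replicate C at 14.6%. The other HHT2 libraries were at 0.197% to 0.922%, and what sets these apart was not tested. HHT2, PHT1, IEC1, ARP42 and IES2 below mean the libraries labelled so, and IES2 results are given with and without T0 C and T1D B. Replicate pairs had a Pearson r of log2 CPM over genes between 0.943 and 0.998 (77 pairs), except that in HHT2 T2W and IEC1 T2W replicate B stood apart from A and C (0.888 to 0.932, 4 pairs). Results at T2W in these strains are given with and without A and C.

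In SMT0 at T0 the sense gene had 1205, 1204 and 787 reads (A, B and C) and the antisense RNA 66, 110 and 86. After 24 h without nitrogen the order was turned over, with 27, 35 and 21 sense reads and 8358, 11451 and 4497 antisense reads. The sense gene stayed low, with 23, 7 and 8 reads at T1W and 36, 22 and 10 at T2W. The antisense RNA stayed high, with 9526, 5414 and 10360 reads at T1W and 8666, 9681 and 9373 at T2W. No starved SMT0 library had more sense than antisense reads, and no T0 library the reverse.

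As a level relative to the other genes, SPBC1652.02 in SMT0 went from 157 ± 28.3 CPM (SD, n = 3) at T0 to 3.91 ± 1.63 at T1D, 2.78 ± 1.94 at T1W and 6.02 ± 2.66 at T2W. SPNCRNA.577 went from 12.8 ± 2.43 CPM at T0 to 1045 ± 172 at T1D, and then to 1773 ± 246 and 2645 ± 589 CPM. The log2 fold change from T0 of the sense gene on the ERCC scale was −6.62 ± 0.83 (SE) after 24 h, −10.74 ± 0.99 after 1 week and −9.48 ± 0.94 after 2 weeks. That of the antisense RNA was 5.19 ± 0.78, 1.97 ± 0.68 and 2.68 ± 0.70. In bulk RNA, fewer cells and less RNA per cell cannot be told apart, and this holds for every ERCC value below. Of all 6608 genes, 21.4% were called lower and 2.24% higher at T1D. At T1W the shares were 97.3% and 0.257%, and at T2W they were 96.1% and 0.318% (adjusted p under 0.05, edgeR's quasi-likelihood test with Benjamini-Hochberg adjustment, here and throughout). These shares are given for scale, since the pair was chosen on this contrast. Without replicate A at T1W the antisense value there was 0.91. The antisense log2 fold changes relative to the other genes were 6.35, 7.11 and 7.69, and the sense ones −5.44, −5.84 and −4.65.

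**Figure D2:**
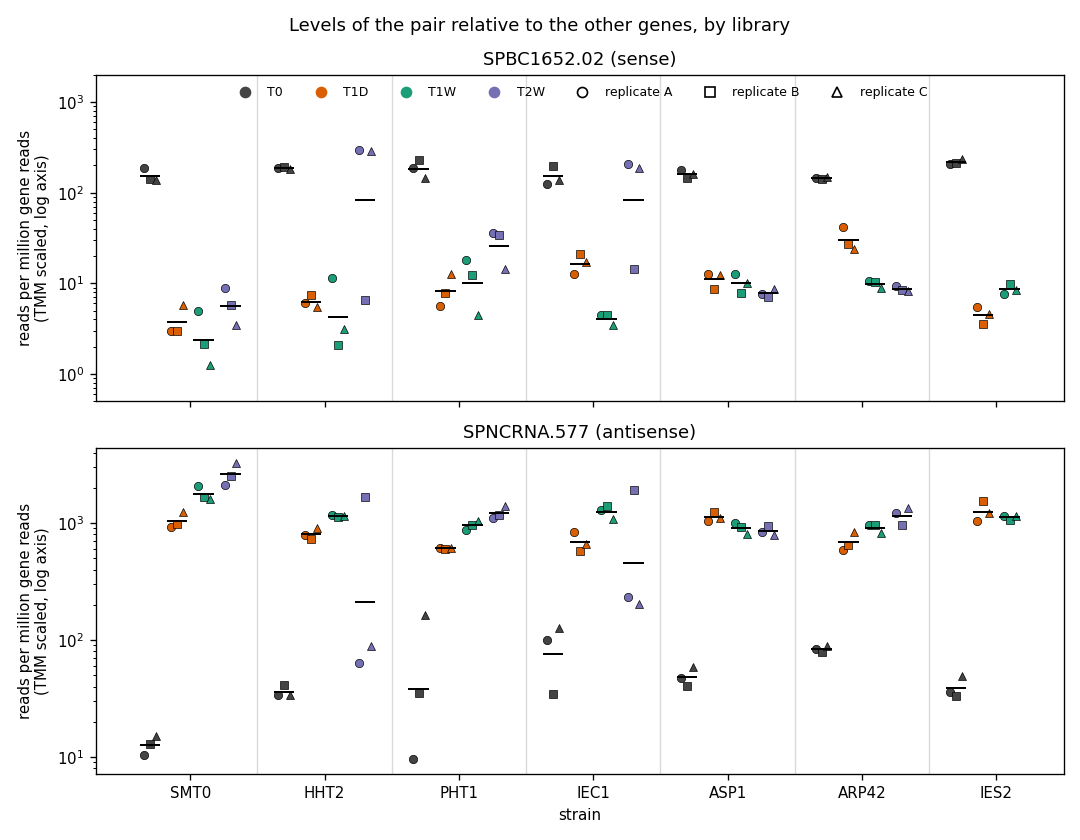
Level of SPBC1652.02 and SPNCRNA.577 in every library, in CPM relative to the other genes, on a log axis, by strain on the horizontal axis, with colours for time points, symbols for replicate letters and bars for the mean of the log values. At T0 the sense gene lies above the antisense RNA in 20 of 21 libraries, and in the starved groups the antisense RNA lies above in 58 of 60. Both counts include the SMT0 libraries by which the pair was chosen.

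In the libraries labelled HHT2, for a histone H3 gene, the pair went through the same turnover. SPBC1652.02 fell from 909, 1394 and 1581 reads at T0 to 43, 80 and 31 at T1D, and SPNCRNA.577 rose from 164, 299 and 289 to 5614, 7904 and 5053. In reads these groups did not overlap for either gene, and the share of all genes for which this held is not given here. On the ERCC scale the sense gene fell by 4.71 ± 0.76 (SE) on the log2 scale (adjusted p = 9.56e-08), where 2.81% of all genes were lower, and the antisense RNA rose by 4.72 ± 0.76 (adjusted p = 1.06e-07), where 7.2% were higher. The median change of all genes was 0.23, so the 2 scales nearly coincide here: relative to the other genes the changes were −4.87 and 4.47. With each library left out in turn, replicate A among them, the sense change on the ERCC scale lay between −5.18 and −4.49. The antisense change then lay between 4.24 and 5.03, and every call was kept.

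At T1W the HHT2 libraries had 35, 14 and 16 reads of SPBC1652.02 and 3615, 7524 and 5810 of SPNCRNA.577. At T2W only replicate B looked starved in this pair, with 31 sense and 7856 antisense reads, whereas A and C had 1908 and 1302 sense reads and 411 and 396 antisense reads. The sense gene changed from T0 by −10.82 ± 0.98 at T1W (adjusted p = 4.52e-25, with 97.6% of genes lower) and −5.55 ± 0.78 at T2W (adjusted p = 2.99e-12, with 95.4% lower). The antisense RNA did not pass the test at T1W (−0.68 ± 0.66, adjusted p = 0.30) and was lower at T2W (−1.93 ± 0.68, adjusted p = 0.0047). With each library left out in turn, the T1W changes lay between −11.73 and −10.27 (sense) and between −1.20 and −0.34 (antisense), with the same calls. The T2W values rest on A and C. With both left out, and the lone sample assumed to vary like the other groups, the sense change was −10.87 (adjusted p = 1.31e-07) and the antisense change −0.51 (adjusted p = 0.60). The antisense call at T2W was also lost without A alone (−1.42) or C alone (−1.44), and without B the change was −4.55. Replicates A and C of HHT2 T2W had a Pearson r of 0.961 and 0.947 with the same letters of IEC1 T2W, and unlike letters were not compared across the strains. Within a strain A and C had r = 0.970 in HHT2 T2W and 0.993 in IEC1 T2W. With the means of the other HHT2 groups r was 0.716 to 0.879. What sets these libraries apart was not tested.

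The libraries labelled IES2, for a subunit of the Ino80 complex, came from a second batch, and the pair turned over in them at T1D and at T1W. SPBC1652.02 had 2332, 2839 and 4130 reads at T0, 62, 19 and 60 at T1D and 20, 17 and 19 at T1W. SPNCRNA.577 had 403, 443 and 853 reads at T0, 11691, 8212 and 15921 at T1D and 2980, 1823 and 2579 at T1W. The depth of this batch differed between time points, from 12354267 to 18992894 gene reads at T0 and 2119210 to 3504221 at T1W, so the reads alone do not give the change. On the ERCC scale the sense gene fell by 5.53 ± 0.79 at T1D (adjusted p = 1.50e-09, where 1.95% of genes were lower) and fell by 5.96 ± 0.81 at T1W (adjusted p = 1.06e-10, where 40.6% were lower). The antisense RNA rose by 4.99 ± 0.77 at T1D (adjusted p = 3.50e-08, where 4.59% of genes were higher) and by 3.53 ± 0.72 at T1W (adjusted p = 4.66e-05, where 2.94% were higher). Without T0 replicate C, whose ies2 reads go against its label, the sense changes were −5.52 and −5.95 and the antisense changes 5.12 and 3.66, and with T1D replicate B left out too they were −5.26 and 5.13 at T1D, all of them called. These values take the offset between the batches to be the same at all times. With it 97.1% of all genes were called higher in IES2 than in SMT0 at T1W. The study describes its correction of this batch as made at T0, and its gene counts against SMT0 are nearer to that setting. With the offset applied at T0 only, the antisense change was 1.28 at T1D (adjusted p = 0.055) and −0.18 at T1W (adjusted p = 0.79), so no rise was called. The sense gene still fell, by 9.23 and 9.66. Of the 6608 genes, 6221 were then lower at T1D and 6393 at T1W. IES2 values on the ERCC scale elsewhere use the offset at all times unless stated. The offset has no part in values relative to the other genes, by which the antisense RNA was higher by 5.00 and 4.83 and the sense gene changed by −5.55 and −4.67.

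In the other 4 mutants the sense gene fell and the antisense RNA rose relative to the other genes, while on the ERCC scale, on which nearly all genes were lower at T1D, no rise of the antisense RNA was called. In the libraries labelled PHT1, for the gene of H2A.Z, SPBC1652.02 had 878, 2108 and 1250 reads at T0, 50, 70 and 99 at T1D, then 95, 73 and 25 at T1W, then 113, 142 and 68 at T2W. SPNCRNA.577 had 45, 322 and 1411 reads at T0, so that replicate C alone had more antisense than sense reads, and then 5465, 5411 and 4760 at T1D, then 4604, 5723 and 5775 at T1W, then 3465, 4820 and 6657 at T2W. In reads the starved groups did not overlap T0 for either gene, and the share of all genes for which this held is not given here. On the ERCC scale the antisense RNA did overlap, with log2 levels of 12.90, 14.36 and 16.57 at T0 and 14.72, 14.60 and 14.90 at T1D. The sense gene changed by −8.27 ± 0.89, −9.35 ± 0.93 and −8.46 ± 0.89 on the ERCC scale (adjusted p = 4.06e-17, 6.24e-21 and 4.11e-19), where 94.4%, 97.1% and 97.4% of genes were lower. The antisense values were −0.62 ± 0.66 (adjusted p = 0.36), −1.18 ± 0.66 (adjusted p = 0.077) and −1.58 ± 0.67 (adjusted p = 0.019). These values rest on T0 replicate C: without it they were 0.94, 0.37 and −0.02, none of them called. The T2W call was also lost without T2W replicate A (−1.30) or C (−1.42) and with a replicate block within the strain (−1.10, adjusted p = 0.095), and the T1W value was called without T0 replicate A (−1.67) or B (−1.50) or T1W replicate C (−1.67), with the groups compared alone (adjusted p = 0.00658) and with the ERCC total alone as the scale (adjusted p = 0.041).

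In the libraries labelled IEC1, for another subunit of the Ino80 complex, SPBC1652.02 had 691, 1110 and 941 reads at T0, 61, 89 and 85 at T1D and 24, 19 and 22 at T1W, and SPNCRNA.577 had 554, 194 and 862, then 4077, 2478 and 3245, then 7047, 5904 and 6904. At T2W replicate B had 28 sense and 3723 antisense reads, and A and C had nearly equal reads of both, 864 and 688 sense and 973 and 740 antisense. The sense gene changed by −7.70 ± 0.87 at T1D, −9.82 ± 0.95 at T1W and −6.13 ± 0.81 at T2W (adjusted p = 4.35e-16, 9.50e-22 and 7.93e-14), where 95.9%, 96.4% and 97.4% of genes were lower. The antisense values were −1.34 ± 0.67 at T1D (adjusted p = 0.046), −0.67 ± 0.66 at T1W (adjusted p = 0.31) and −2.54 ± 0.69 at T2W (adjusted p = 2.67e-04). The T1D call was lost in DESeq2 (adjusted p = 0.091), with a replicate block by letter (−1.30, adjusted p = 0.056) and without T0 replicate A (−1.21) or C (−0.97), or T1D replicate B (−0.94) or C (−1.29). With A and C of T2W both left out the sense change was −9.02 (adjusted p = 2.26e-06) and the antisense change −1.19 (adjusted p = 0.24), and without B alone the antisense change was −4.68.

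ASP1 lacks an inositol kinase. SPBC1652.02 had 1243, 1093 and 1114 reads at T0, 66, 32 and 44 at T1D, then 26, 37 and 29 at T1W, then 17, 22 and 25 at T2W. SPNCRNA.577 had 330, 300 and 409 reads at T0, 5377, 4530 and 3946 at T1D, then 2046, 4355 and 2293 at T1W, then 1848, 2970 and 2249 at T2W. The sense gene changed by −9.48 ± 0.93, −11.16 ± 0.99 and −10.89 ± 0.99 (adjusted p = 3.06e-21, 6.56e-26 and 5.06e-25), where 97.9%, 98.4% and 98.1% of genes were lower. The antisense value at T1D was −1.11 ± 0.66 (adjusted p = 0.095), and at T1W and T2W the antisense RNA changed by −2.81 ± 0.70 and −2.34 ± 0.69 (adjusted p = 6.23e-05 and 6.90e-04). Fitted with the ASP1 groups compared alone, the T1D value was called too (adjusted p = 8.76e-08).

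The libraries labelled ARP42, for an actin-related protein, had the smallest increase of the antisense to sense ratio at T1D among the 7 strains. SPBC1652.02 had 1325, 1285 and 1428 reads at T0, 152, 91 and 98 at T1D, then 29, 27 and 56 at T1W, then 39, 40 and 47 at T2W. SPNCRNA.577 had 774, 711 and 840 reads at T0, 2098, 2168 and 3474 at T1D, then 2619, 2512 and 5180 at T1W, then 4987, 4521 and 7665 at T2W. The sense gene changed by −8.92 ± 0.91, −11.72 ± 1.01 and −10.06 ± 0.95 (adjusted p = 2.58e-20, 2.58e-28 and 3.52e-23), where 98.7%, 99.5% and 98.6% of genes were lower. The antisense RNA fell as well, with changes of −3.40 ± 0.72, −4.41 ± 0.75 and −2.04 ± 0.68 (adjusted p = 2.34e-06, 4.93e-09 and 0.00269). The median change of all genes in ARP42 at T1D was −6.60, against −5.59 in ASP1, −4.37 in IEC1, −3.82 in PHT1, −1.05 in SMT0, 0.043 in IES2 and 0.23 in HHT2. The IES2 median rests on the offset between the batches as well, and it was −3.66 with the offset applied at T0 only.

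Set against that shift, the pair moved the same way in every mutant. At T1D and relative to the other genes, SPBC1652.02 was lower in 6 of 6 mutants: the log2 changes were −4.87 for HHT2, −4.44 for PHT1, −3.19 for IEC1, −3.85 for ASP1, −2.23 for ARP42 and −5.55 for IES2, with adjusted p between 4.87e-11 and 3.03e-04. The shares of all genes called lower on this scale were 30.3%, 27.3%, 28.2%, 28.2%, 31.1% and 27.4% in that order. SPNCRNA.577 was higher in 6 of 6, by 4.47, 3.12, 2.99, 4.52, 3.04 and 5.00, with adjusted p between 1.24e-08 and 6.18e-05, where 28.9%, 27.6%, 27.2%, 27.1%, 29.4% and 28% of genes were called higher. Ranked by the ERCC-scale change among the 6608 genes at T1D, the sense gene had rank 10 to 23 from the lowest in SMT0 and 5 mutants, and rank 77 in ARP42. The antisense RNA had rank 39 from the highest in IES2, 47 in SMT0, 71 in ASP1, 77 in HHT2, 150 in PHT1, 181 in IEC1 and 229 in ARP42. The SMT0 ranks follow in part from the choice of the pair. At T1W and T2W the antisense changes relative to the other genes lay between 3.16 (IEC1 T2W) and 4.99 (HHT2 T1W), and the sense changes between −5.28 (HHT2 T1W) and −2.74 (PHT1 T2W) apart from HHT2 T2W (0.082) and IEC1 T2W (−0.14).

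**Figure D3:**
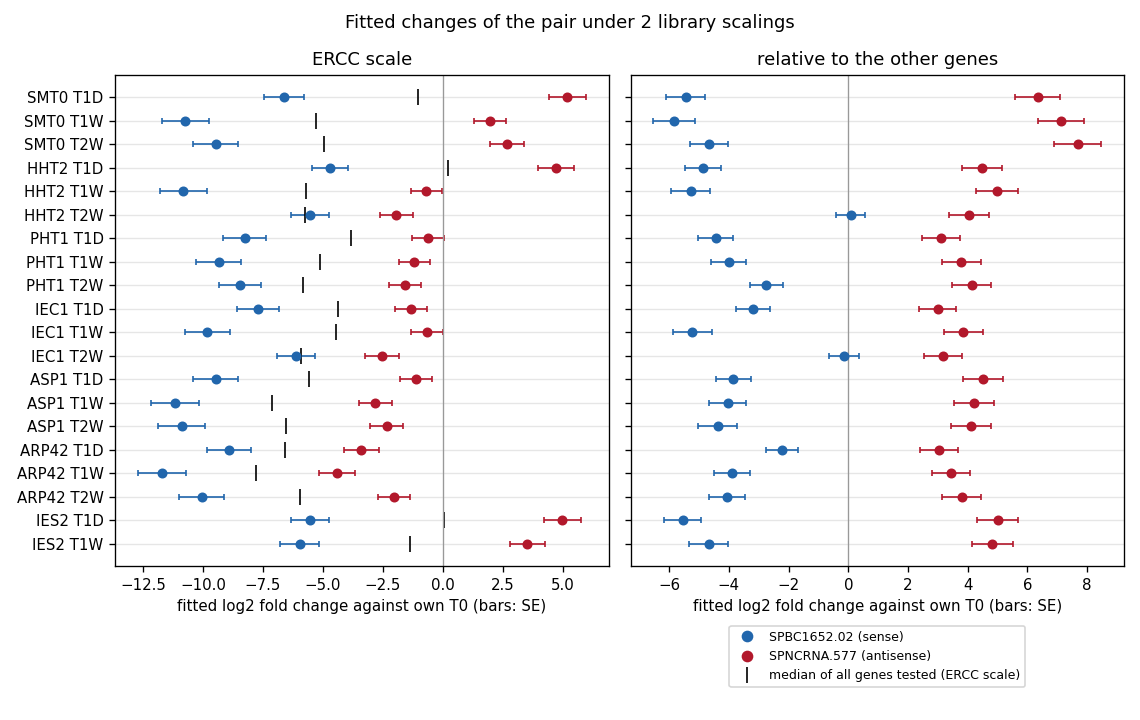
Log2 fold change from the strain's own T0 for SPBC1652.02 and SPNCRNA.577, by strain and time point, with the ERCC scale and the scale relative to the other genes side by side, bars of 1 SE, and black ticks for the median of all genes tested. The antisense RNA on the ERCC scale is above 0 in SMT0, HHT2 at T1D and IES2 only. The IES2 values take the offset between the batches to be the same at all times. Relative to the other genes the antisense RNA is above 0 in every comparison shown.

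The ratio of antisense to sense reads within a library needs no scale, since both genes share it. It was taken as log2((antisense + 0.5)/(sense + 0.5)). At T1D the mean ratio was 8.10 ± 0.34 (SD, n = 3) in SMT0, 8.10 ± 0.59 in IES2, 6.99 ± 0.35 in HHT2, 6.64 ± 0.42 in ASP1, 6.20 ± 0.59 in PHT1, 5.36 ± 0.64 in IEC1 and 4.50 ± 0.68 in ARP42. In this order the neighbours ASP1 and HHT2, PHT1 and ASP1, IEC1 and PHT1, and ARP42 and IEC1 are closer than their spreads combined. At T0 it was −3.60 ± 0.52 in SMT0, −2.49 ± 0.20 in IES2, −2.38 ± 0.14 in HHT2, −2.27 ± 2.26 in PHT1, −1.74 ± 0.26 in ASP1, −0.99 ± 1.33 in IEC1 and −0.80 ± 0.05 in ARP42.

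The increase from T0 to T1D was 11.70 in SMT0, 10.60 in IES2, 9.36 in HHT2, 8.47 in PHT1, 8.38 in ASP1, 6.35 in IEC1 and 5.29 in ARP42. In all 17 mutant comparisons with T0 the ratios did not overlap and were higher after starvation, by 3.42 (IEC1 T2W) to 10.60 (IES2 T1D). As background, the ratios of the 599 annotated sense and antisense pairs tested did so at T1D in 30.6% for HHT2, 36.6% for PHT1, 41.1% for IEC1, 43.4% for ASP1, 45.1% for ARP42 and 34.1% for IES2. At T1W the shares were 28% for HHT2, 35.4% for PHT1, 31.4% for IEC1, 61.1% for ASP1, 37.2% for ARP42 and 41.4% for IES2. At T2W they were 46.6% for HHT2, 40.9% for PHT1, 37.6% for IEC1, 57.6% for ASP1 and 43.9% for ARP42. The median difference over all pairs lay between 0.013 (IEC1 T1W) and 1.48 (ASP1 T1W). For the pair itself the HHT2 T2W comparison was nearly tied, at −2.213 in T2W replicate A and −2.219 in T0 replicate B. At T2W replicate B, which stood apart from A and C, had a ratio of 7.96 in HHT2 and 7.03 in IEC1. Each comparison of the members had p = 0.1 in the two-sided exact permutation test, the smallest that 3 against 3 libraries allow, so none could reach 0.05. The antisense RNA had more reads than the sense gene in 1 of 21 T0 libraries and in 58 of 60 starved libraries, the exceptions being HHT2 T2W A and C, and in 56 of 56 without the 4 T2W libraries that stood apart. These counts include the SMT0 libraries by which the pair was chosen. In the mutants alone they were 1 of 18 at T0, 18 of 18 at T1D, 18 of 18 at T1W and 13 of 15 at T2W.

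**Figure D4:**
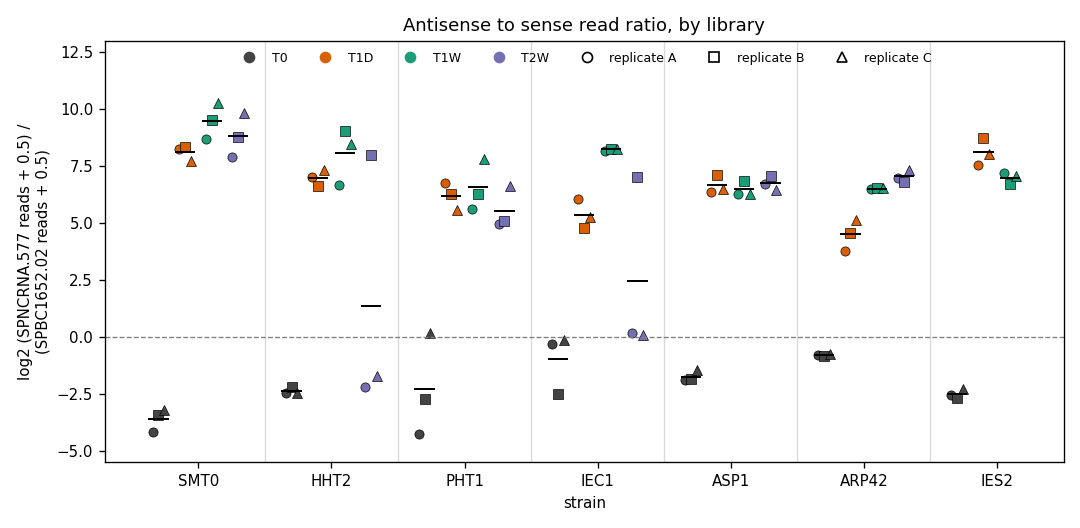
Log2 ratio of SPNCRNA.577 to SPBC1652.02 reads in every library, by strain and time point, with colours for time points, symbols for replicate letters and a bar for the group mean. T0 libraries lie between −4.27 and 0.17 and the starved ones between 3.78 and 10.25, apart from HHT2 T2W A and C and IEC1 T2W A and C, which lie between −2.21 and 0.17.

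Before starvation SPNCRNA.577 had a higher mean level in every mutant than in SMT0, while SPBC1652.02 overlapped SMT0 in all except IES2. The SMT0 libraries in these comparisons are those by which the pair was chosen, and all mutants share them, so the values favour a lower antisense level in SMT0 at T0 by the choice itself, are not independent of each other, and are given here and in the next paragraph without a test. The mean level of SPNCRNA.577 at T0, relative to the other genes, was 12.8 ± 2.43 CPM (SD, n = 3) in SMT0, 36.2 ± 4.26 in HHT2, 39.3 ± 8.28 in IES2, 49.1 ± 9.47 in ASP1, 69.1 ± 82.2 in PHT1, 83.7 ± 4.74 in ARP42 and 87.3 ± 47.5 in IEC1. Every mutant library was above the highest SMT0 library except PHT1 replicate A. The share of all genes whose levels separate from SMT0 in this way is not given here, so this is a description only. SPBC1652.02 at T0 was at 157 ± 28.3 CPM in SMT0 and between 145 (ARP42) and 219 (IES2) in the mutants.

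The fitted log2 difference from SMT0 in SPNCRNA.577 at T0 was, on the ERCC scale, 2.62 ± 0.70 (SE) in IEC1, 2.18 in ASP1, 2.09 in PHT1, 1.76 in ARP42, 1.29 in IES2 and 1.16 in HHT2, while the median over all genes lay between −0.89 (ARP42) and 0.27 (ASP1). Relative to the other genes the values for ARP42, PHT1 and IEC1 were 2.71, 2.44 and 2.77. The ratio at T0 was higher than in SMT0 by 1.11 (IES2) to 2.81 (ARP42), without overlap except in PHT1. The share of all sense and antisense pairs without overlap is not given for comparisons with SMT0.

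After 24 h the same comparison with SMT0 turned on the scale. SPNCRNA.577 on the ERCC scale differed from SMT0 by −6.84 ± 0.84 in ARP42, −4.12 ± 0.74 in ASP1, −3.91 ± 0.73 in IEC1 and −3.72 ± 0.73 in PHT1, where the median differences of all genes were −6.52, −4.36, −3.60 and −3.09. In HHT2 it differed by 0.68 ± 0.66 and in IES2 by 1.08 ± 0.66, with medians of 0.92 and 0.77. With the offset between the batches applied at T0 only, the IES2 median was −2.93. The antisense values relative to the other genes lay between −0.79 (PHT1) and 0.28 (IES2). SPBC1652.02 differed by −1.60 in PHT1, −2.54 in ASP1 and −3.33 in ARP42 on the ERCC scale, and relative to the other genes by 1.26, 1.65 and 3.11. The ratio at T1D was lower than in SMT0 in 5 mutants without overlap, with differences of −1.11 (HHT2) to −3.60 (ARP42), and IES2 differed by 0.0052. At T1W and T2W the ratio was again lower than in SMT0 in every mutant measured, with differences such as −1.25 in IEC1 and −2.97 in ARP42 at T1W and −1.78 in ARP42 and −7.47 in HHT2 at T2W, and with overlap in HHT2 only. The T2W values of HHT2 and IEC1 rest on their replicates A and C. The choice of the pair favours a high ratio in SMT0 after starvation. The share of all pairs without overlap is not given for these comparisons, so they are a description only.

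The change at T1D in HHT2 was compared with that in the other mutants, which leaves SMT0 out. On the ERCC scale the fall of SPBC1652.02 was smaller in HHT2 than in ARP42 (difference of log2 fold changes 4.21), ASP1 (4.77), IEC1 (2.99) and PHT1 (3.56), and the change of SPNCRNA.577 was higher by 8.12, 5.83, 6.06 and 5.33, all past the threshold (adjusted p from 5.08e-13 to 0.00177). Most genes passed the same test: 98.2%, 97.7%, 95.9% and 94.9% of all genes had a higher change in HHT2, and the median differences were 6.84, 5.87, 4.69 and 4.11. Relative to the other genes only the sense gene against ARP42 passed the test (−2.64 ± 0.77, adjusted p = 0.014): it fell further in HHT2 than in ARP42. Against IES2 neither member passed on the ERCC scale (0.82 ± 0.93 for the sense gene and −0.27 ± 0.93 for the antisense RNA, adjusted p = 1 for both). With the offset between the batches applied at T0 only, both passed (4.52, adjusted p = 3.85e-05, and 3.44, adjusted p = 3.96e-04), the median difference of all genes being 3.90.

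Of the amino acid transporter genes, taken as those that RefSeq describes as amino acid transporters or permeases, all 21 were tested. The T1D change of SPBC1652.02 was the lowest of the 21 in each of the 6 mutants, on both scales. It was also the lowest in SMT0, where the gene was chosen because it fell. Next lowest in SMT0 by the log2 fold change on the ERCC scale was aat1, a permease, at −3.22, followed by the permease SPBC15C4.04c at −2.12 and the arginine and lysine transporter cat1 at −1.68. The largest positive changes in SMT0 on this scale were those of isp5 (1.98), SPAC1039.01 (1.06) and meu22 (0.99), all permeases, of which isp5 was called. Relative to the other genes 12 of the 21 were called higher and 3 lower in SMT0, 12 and 4 in both HHT2 and IES2, 11 and 4 in ARP42, 9 and 6 in ASP1, 6 and 3 in IEC1 and 10 and 5 in PHT1. Of all genes on this scale 27.1% were called higher and 26.9% lower in SMT0, and in the mutants 27.1% to 29.4% higher and 27.3% to 31.1% lower. The medians in this order of the strains were 0.94 (SMT0), 0.73 (HHT2), 0.74 (IES2), 0.78, 0.49, 0.41 and 0.92, against medians over all genes between −0.05 and 0.05. By the ERCC scale 0 of 21 were higher in PHT1, IEC1, ASP1 and ARP42 and 20 or 21 were lower, where 94.4% to 98.7% of all genes were lower. In HHT2, with 7.2% of genes higher and 2.81% lower, 7 were higher and 2 lower, and in IES2, with 4.59% and 1.95%, 1 was higher and 1 lower.

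The annotation holds 635 antisense genes named after a sense gene, and 599 such pairs had both genes tested. By the ERCC scale the sense gene was called lower and the antisense gene higher at T1D in 10 pairs in SMT0, 3 in IES2, 1 in HHT2, 1 in PHT1 and 0 in IEC1, ASP1 and ARP42. Relative to the other genes there were 63 such pairs in SMT0, 66 in IES2, 50 in HHT2, 91 in ARP42, 64 in ASP1, 77 in IEC1 and 65 in PHT1. By the difference between the antisense and the sense change, SPBC1652.02 and SPNCRNA.577 had rank 1 of the 599 in HHT2 and IES2, rank 2 in IEC1, 3 in PHT1, 5 in ARP42 and 7 in ASP1. The pair also had rank 1 in SMT0, where it was chosen for such changes, so that rank is a description only. The other SMT0 pairs with the largest differences were SPBC15D4.05 with SPNCRNA.1573 (−1.75 and 6.12), ubp16, a ubiquitin protease, with SPNCRNA.1137 (−1.92 and 3.54), SPCC417.03 with SPNCRNA.1215 (−2.99 and 2.26) and gir2 with SPNCRNA.1160 (−1.78 and 3.19). In these the sense gene changed less than SPBC1652.02 did, which was chosen for its fall in SMT0.

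Of 9 annotated genes within 5000 bp of the pair, 8 were tested, and none was called in SMT0, HHT2 or IES2 at T1D on the ERCC scale. Among the 8, SPBC16G5.19 and SPNCRNA.114 had mean counts of only 1 and 1.33. Relative to the other genes 3 were higher and 1 lower in SMT0 and in IES2, and 1 and 1 in HHT2. The shares of all genes on that scale were 27.1% and 26.9% in SMT0, 28% and 27.4% in IES2 and 28.9% and 30.3% in HHT2. In PHT1, IEC1, ASP1 and ARP42, 6, 7, 6 and 8 of them were lower, as most genes were. The nearest upstream gene, stb3 (a DNA-binding transcription factor) ends 445 bp from the 3′ end of the antisense gene. Relative to the other genes stb3 was higher at T1D in all 7 strains, by 2.21 in SMT0 and in the mutants by 1.10 (PHT1) to 1.52 (HHT2). The nearest gene downstream, eaf7 (a subunit of the NuA4 histone acetyltransferase), lies 355 bp away on the strand of the antisense RNA, and its changes on that scale lay between 0.09 and 0.59.

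The genes whose pattern was most like that of each member were sought over the 24 group means of the strains other than IES2, in log2 CPM relative to the other genes, among 6081 genes. The highest Pearson r with SPBC1652.02 was that of the polyphosphatase gene SPBC713.07c (0.924), the non-coding RNA SPNCRNA.291 (0.920) and cho1, a methyltransferase of phospholipid synthesis (0.916). The lowest was that of spo12 (−0.957), fah2, an amidase (−0.949), and SPAC922.06, a reductase (−0.943). With SPNCRNA.577 the highest were dad5, a subunit of the DASH complex of the kinetochore (0.976), SPAC869.04, a formamidase-like gene (0.971), and xan1, a xanthine dioxygenase that acts in purine use (0.969). The lowest were rki1 of the pentose phosphate pathway (−0.947), the signal peptidase subunit sec11 (−0.946) and spe2 of polyamine synthesis (−0.943). The members had r = −0.90 (Spearman rho −0.83) with each other, and SPNCRNA.577 had rank 42 from the lowest among all genes by its r with SPBC1652.02. The 24 groups include those of SMT0, in which the pair was chosen for opposite changes. A negative r between the members and a low rank are therefore partly built in, and are given as a description. These groups share strains, T0 against starvation and the scale, and on the ERCC scale the sign of every negative r here turned. The r between the members was then 0.37, and those of the 6 genes named as lowest lay between 0.417 and 0.765. Of the genes named as highest, SPAC869.04 had r = 0.649 with SPNCRNA.577 on the ERCC scale, rank 4482 from the highest among the 6081 genes. The others named as highest lay between 0.959 and 0.978.

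The reads of the 2 strands can be told apart only if the counting used strand. A stranded kit was used, and the setting of the counting was not given in the sources used here. Counting without strand, with reads that fit more than 1 gene left out, would leave wholly nested genes with nearly no reads. Of 563 genes that lie inside exons of genes on the other strand, 412 (73.2%) had a mean of at least 10 reads, with a median of 75.9, against 1939 of 2337 genes without overlap (83.0%, median 366). Sense reads fell to 7 in SMT0 T1W replicate B, where the antisense RNA had 5414, so at most 7 of those antisense reads can have been counted to the sense gene there.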

How the data were processed

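RNA-seq was done on rRNA-depleted RNA from 3 biological replicates of each of 27 groups of strain and time point. The authors demultiplexed the reads with bcl2fastq 2.20.0.422, aligned them to ASM294v2 plus ERCC sequences with STAR 2.7.9a, and counted exon reads with featureCounts 1.5.1, and the deposited values are whole read counts per gene or ERCC RNA without normalization. The strand setting of the counting was not given in the sources used here. Every library had between 1980570 and 18992894 gene reads.

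Tests used edgeR 4.0.16 with limma 3.58.1 in R 4.3.3, and Python 3.11.15 with SciPy 1.17.1 and matplotlib 3.10.9. A gene was kept if it exceeded 1 CPM in 3 or more libraries (6608 of 7014), and a quasi-likelihood model in edgeR, with no block, was fitted to the 27 groups at once. Library sizes were ERCC totals multiplied by TMM factors from the ERCC counts. The IES2 libraries, a second batch without a wild type, were shifted together by 3.70 log2 units so that gene total to ERCC size at T0 was equal in both batches. The study describes its correction of this batch as made at T0, and a shift of the T0 libraries alone was an alternative here. The scale relative to the other genes used TMM factors of the gene counts. The SE is the fold change divided by the root of the F statistic. Adjustment was by Benjamini-Hochberg over all genes tested in each comparison, with a threshold of 0.05. Ratios of reads were compared by two-sided exact permutation, with a pseudocount of 0.5.

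The comparisons were each mutant time point against its own T0, each mutant against SMT0 (a description, since SMT0 chose the pair), and the T1D change of HHT2 against that of the other mutants. The 2 members and all gene lists were chosen with earlier results of these data known. Named genes are the members, their neighbours within 5000 bp, the deleted genes, the 3 highest and 3 lowest by likeness to each member among genes with mean counts of 10 or more, the 3 transporters with the largest rise and fall in SMT0 at T1D, and the 5 pairs with the largest difference there. Alternatives were the gene-count scale, the ERCC total alone, other filters, DESeq2 1.42.0, edgeR's likelihood ratio test, the groups compared alone, a block, other batch shifts and each library left out. The fits were tested on simulated data. Cultures were split, with a portion taken at T0 and the rest starved for 24 h, but no source says that the letters mark a culture. Deviations of samples with the same letter went together in 1 of 43 comparisons only (HHT2 against SMT0 at T2W, correlation of deviations over 0.1 for all 3 letters). The samples from chromatin immunoprecipitation were not analysed here.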

Additional observations from a re-analysis of the deposited data

Results flagged for a closer look

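By a test of the difference between strains, the T1D change of both members differed between HHT2 and 4 other mutants on the ERCC scale (edgeR's quasi-likelihood test, Benjamini-Hochberg adjustment), as it did for most genes: 98.2% of all genes had a higher change in HHT2 than in ARP42, 97.7% than in ASP1, 95.9% than in IEC1 and 94.9% than in PHT1. For SPBC1652.02 the log2 fold change from T0 was higher in HHT2 by 4.21 than in ARP42, 4.77 than in ASP1, 2.99 than in IEC1 and 3.56 than in PHT1. For SPNCRNA.577 it was higher by 8.12, 5.83, 6.06 and 5.33 in the same order. Relative to the other genes the sense differences were −2.64, −1.03, −1.68 and −0.44 and the antisense differences 1.43, −0.041, 1.48 and 1.36, of which the first sense value passed the test. Groups of 3 libraries were too small for a test of outlying libraries.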

How the results depend on the processing

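The direction of the antisense RNA turned with the scale. With TMM factors of the gene counts in place of the ERCC scale, the SPNCRNA.577 changes from T0 became 3.12, 3.78 and 4.13 for PHT1 (T1D, T1W and T2W), 3.04, 3.45 and 3.80 for ARP42, 4.52, 4.21 and 4.12 for ASP1, 2.99, 3.85 and 3.16 for IEC1, and 4.99 (T1W) and 4.06 (T2W) in HHT2, and SPBC1652.02 became 0.082 in HHT2 at T2W. Against SMT0, SPBC1652.02 at T1D became 3.11 for ARP42, 1.26 for PHT1, 2.23 for IEC1 and 1.65 for ASP1, 1.86 in ASP1 and 1.85 in ARP42 at T1W and 0.48 in ARP42 at T2W, and SPNCRNA.577 became 0.10 in ASP1 at T1D and −0.66 in IES2 at T1W. The HHT2 differences became −2.64, −1.03, −1.68 and −0.44 against ARP42, ASP1, IEC1 and PHT1 for the sense gene, and −0.041 against ASP1 for the antisense RNA. On the ERCC scale the negative likeness of spo12 (SPAC3F10.15c), fah2 (SPCC550.07) and SPAC922.06 to SPBC1652.02 became 0.765, 0.417 and 0.621, and that of rki1 (SPAC144.12), sec11 (SPBC1685.03) and spe2 (SPBP4H10.05c) to SPNCRNA.577 became 0.562, 0.640 and 0.563. The different scaling is what these alternatives change, and the scales differ by the shift of all genes.

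Without a shift of the second batch, IES2 against SMT0 became −3.52 at T0 and −2.44 at T1D for SPBC1652.02, and −2.41, −2.62 and −0.86 at T0, T1D and T1W for SPNCRNA.577. With only its T0 libraries shifted, the T1D and T1W values against SMT0 were the same −2.44, −2.62 and −0.86, the antisense changes from T0 were 1.28 and −0.18, and the differences between HHT2 and IES2 were 4.52 for the sense gene and 3.44 for the antisense RNA, both called. With replicates A and C of HHT2 T2W left out, a setting chosen after seeing the data, SPBC1652.02 against SMT0 was −1.45. The IEC1 T1D antisense change lost its call with DESeq2 (−1.34), with the replicate block by letter (−1.30, adjusted p = 0.056) and with 4 of 6 libraries left out in turn (range −1.96 to −0.94). The ASP1 T1D antisense change (−1.11) was called only with the groups compared alone. Leaving out libraries, SPBC1652.02 in ARP42 against SMT0 at T1W ranged from −2.70 to 0.021, and the ratio of IES2 against SMT0 at T1D from −0.30 to 0.28 (−0.18 as the difference of the fitted changes). The causes were not tested.

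Of 526 alternatives for the 34 changes of the members from T0 in the mutants, 487 kept the direction and the side of the threshold, 17 lost a call, 6 gained one and 16 changed direction. Of 660 for the 46 comparisons with SMT0, which are read without a test, 19 changed direction. Of 430 for the 43 ratios 3 changed direction, and no ratio could pass a threshold of 0.05 in any of them. The letters met the limit for pairing only in HHT2 against SMT0 at T2W. With the replicate block within strain the PHT1 T2W call of SPNCRNA.577 was lost (−1.10, adjusted p = 0.095). Sense counts of 7 to 152 in starved libraries, outside the 4 that stood apart, limit the precision of the ratio.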
